A study of Mus musculus with 6 samples.

Results

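The genes described are 40 genes of mitosis and of the passage from G2 into M phase, chosen by name, of which 39 had a value among the 19937 genes tested; Ccnb1 was not analysed here. Their transcripts were read from 6 Affymetrix arrays of RNA from mouse embryonic stem cells. CHIR99021, which inhibits the kinase GSK3 and so stabilises β-catenin, was given at 3 µM for 24 h before 3 of the arrays. XAV939, which inhibits tankyrase and so lowers β-catenin by way of Axin, was given for 24 h before the other 3, at a dose that the sample labels give as 3 µM and the treatment protocol as 1 µM. Every array was of the same knock-in V6.5 line (Ctnnb1-BioFLneo;BirA), in which endogenous β-catenin carries a biotin and FLAG tag beside the biotin ligase BirA, grown in serum and LIF with feeder cells from DR4 mice. No array of untreated cells was analysed here, so a difference belongs to neither compound alone, and nothing in the labels says that replicates were separate cultures, so p-values cover only the spread between these arrays.

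Entry into mitosis is driven by the kinase Cdk1 bound to cyclins A and B, and exit by the anaphase-promoting complex, which marks cyclin B and securin for destruction once every chromosome is attached to the spindle. The genes of this programme are transcribed mainly in G2 and M phase, through MuvB complexes with B-Myb and FoxM1 that act at a short promoter element, the cell cycle homology region, and through NF-Y, which binds CCAAT boxes. Embryonic stem cells divide fast, with a short G1 phase, and carry much mitotic transcript. In a bulk culture, a lower level can come from fewer cells in G2 and M phase or from less transcript per cell, and these cannot be told apart here.

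The promoters of these genes were searched for the letters of the elements named above. These elements are known from genes of this programme, so a high share is no independent finding. In RefSeq windows of 300 bases (GRCm38.p6, 250 before to 50 after a gene's start, the first listed window of each gene), 34 of the 40 genes had a window. The letters CCAAT stood on either strand in 27 of these 34 windows (79.4%), against 37.9% of the windows of 27025 genes. TTTGAA, the usual core of the cell cycle homology region, stood on either strand in 25 of 34 (73.5%), against 18.1%, and its variant TTTAAA, which reads the same on both strands, in 8 of 34 (23.5%), against 13.2%. At least 1 CCAAT together with TTTGAA or TTTAAA was found in 24 of 34 (70.6%), against 10.9%. Of the 25 windows with TTTGAA, 23 had it within 50 bases of the start, a count not taken over all genes. These are matches of letters, with 2 overlapping pairs among the matches in the mitotic windows, and they do not show binding.

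Some of the TTTGAA matches are shown with 7 bases on either side, to let their surroundings be compared, with the 6 matched letters in capitals and each written along the strand of its gene. Each belongs to the first listed gene of its functional class that had the letters on its own strand, with the match nearest the start, and not every class is shown; the class of chromosome structure, whose match in Top2a lay at -179 from the start, is left out. In order, the stretches are Cdk1 chr10:69352915-69352934 (minus strand), Plk1 chr7:122159458-122159477 (plus strand), Cdc20 chr4:118437349-118437368 (minus strand), Cenpa chr5:30666895-30666914 (plus strand), Kif20b chr19:34922358-34922377 (plus strand), Hmmr chr11:40733417-40733436 (minus strand), Kif23 chr9:61946785-61946804 (minus strand).
Cdk1: cggcgagTTTGAAactgctg
Plk1: cgccgcgTTTGAAttcgggg
Cdc20: gttgggtTTTGAAggagcca
Cenpa: gtgatttTTTGAActgctgg
Kif20b: gccattgTTTGAAtttgaaa
Hmmr: aggtaaaTTTGAAttcaggc
Kif23: tggcctgTTTGAAatgcgcc
Counted from the start, the marked matches lay between -18, in Cdc20, and 31, in Plk1. The Kif20b stretch holds a further TTTGAA directly after the marked one, left in lower case.

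Whole windows are shown for Ect2 and Nusap1, the genes with lower levels under CHIR99021 described next, and for Ccnb2, a gene with no difference past the threshold. Capitals mark the letters searched, on either strand. The windows are chr3:27153829-27154128 on the minus strand for Ect2, chr2:119618048-119618347 on the plus strand for Nusap1 and chr9:70421505-70421804 on the minus strand for Ccnb2. Ccnb2 was chosen for display after its values were seen.
Ect2: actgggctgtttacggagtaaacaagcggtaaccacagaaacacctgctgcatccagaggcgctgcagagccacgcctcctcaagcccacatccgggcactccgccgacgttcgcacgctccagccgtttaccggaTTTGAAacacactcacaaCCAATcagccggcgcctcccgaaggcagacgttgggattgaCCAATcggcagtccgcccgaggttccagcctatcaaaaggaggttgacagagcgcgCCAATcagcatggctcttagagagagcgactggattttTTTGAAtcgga
Nusap1: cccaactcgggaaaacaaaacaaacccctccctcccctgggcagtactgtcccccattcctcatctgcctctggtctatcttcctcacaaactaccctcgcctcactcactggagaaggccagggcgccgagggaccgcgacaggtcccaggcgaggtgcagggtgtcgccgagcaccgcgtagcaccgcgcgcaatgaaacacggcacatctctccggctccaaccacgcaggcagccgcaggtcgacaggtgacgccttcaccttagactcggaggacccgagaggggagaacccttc
Ccnb2: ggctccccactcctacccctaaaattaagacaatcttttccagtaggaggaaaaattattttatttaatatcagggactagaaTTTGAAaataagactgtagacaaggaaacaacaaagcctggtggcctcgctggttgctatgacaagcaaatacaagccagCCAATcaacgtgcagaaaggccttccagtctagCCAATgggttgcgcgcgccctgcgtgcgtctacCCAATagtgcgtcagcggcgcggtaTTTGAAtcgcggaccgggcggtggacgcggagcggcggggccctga
The Ect2 and Ccnb2 windows each held 5 matches, with 3 CCAAT and 2 TTTGAA. The Nusap1 window held 0, as did those of Mad2l1 and Pttg1. Ect2 and Nusap1 both fell with CHIR99021, 1 with these letters in its window and 1 without.

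Most mitotic transcripts differed little between the treatments. Of the 39 genes, 3 had an adjusted p under 0.05 when limma was run on all 19937 genes: Ect2 and Nusap1 fell with CHIR99021, and Cdc25c rose. The other 36 did not pass. The 3 called genes are 7.69% of the 39, against 9.65% of all genes, with 1 higher (2.56%, against 5.31%) and 2 lower (5.13%, against 4.34%). With all 6 arrays, the share called was thus no larger than that of the genome at large. All 39 genes lay above the 50th percentile of level. When only genes above it were tested, 17.7% of them were called, against 7.69% of the 39. Shares over all genes, here and below, include genes of low level. The median log2 difference, CHIR99021 minus XAV939, was -0.039 over the 39 genes and 0.0066 over all genes. For scale, Axin2, a feedback target of β-catenin, was 3.75-fold higher under CHIR99021.

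Ect2 encodes the exchange factor that activates RhoA at the cell equator and so starts the contractile ring of cytokinesis. Its log2 level was 10.18, 10.19 and 10.20 under CHIR99021, against 10.42, 10.66 and 10.79 under XAV939. The CHIR99021 arrays lay within a few hundredths of each other, the XAV939 arrays were spread, and every CHIR99021 array was below every XAV939 array. The difference was -0.43 ± 0.08 (SE, n = 3 per treatment), a level 1.35-fold lower (limma, adjusted p = 0.00788).

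Nusap1 encodes a microtubule-binding protein that gathers spindle fibres around chromosomes. Its log2 level was 8.39, 8.29 and 8.45 under CHIR99021, against 8.59, 8.76 and 8.80 under XAV939. The treatments did not overlap, and XAV939 replicate 1 was the XAV939 array nearest to the CHIR99021 arrays. The difference was -0.34 ± 0.07 (SE, n = 3 per treatment), or 1.27-fold lower (limma, adjusted p = 0.00962). Its call depended on CHIR99021 replicate 2, without which the difference was -0.30 and the adjusted p was 0.0553 (limma). Without that array 1 mitotic gene was higher, against 3.64% of all genes, and 1 lower, against 2.65% (6.29% in either direction).

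Cdc25c encodes a phosphatase that removes inhibitory phosphates from Cdk1. Its log2 level was 7.41, 7.49 and 7.53 under CHIR99021, against 7.11, 7.18 and 7.25 under XAV939. Every CHIR99021 array was above every XAV939 array, and the spread within the treatments was alike. The difference was 0.29 ± 0.06 (SE, n = 3 per treatment), or 1.23-fold higher (limma, adjusted p = 0.00947). When all 34760 probe sets of the table were tested together, Cdc25c, Nusap1 and Ect2 just missed the threshold, at adjusted p of 0.0503, 0.0618 and 0.0637.

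**Figure D1:**
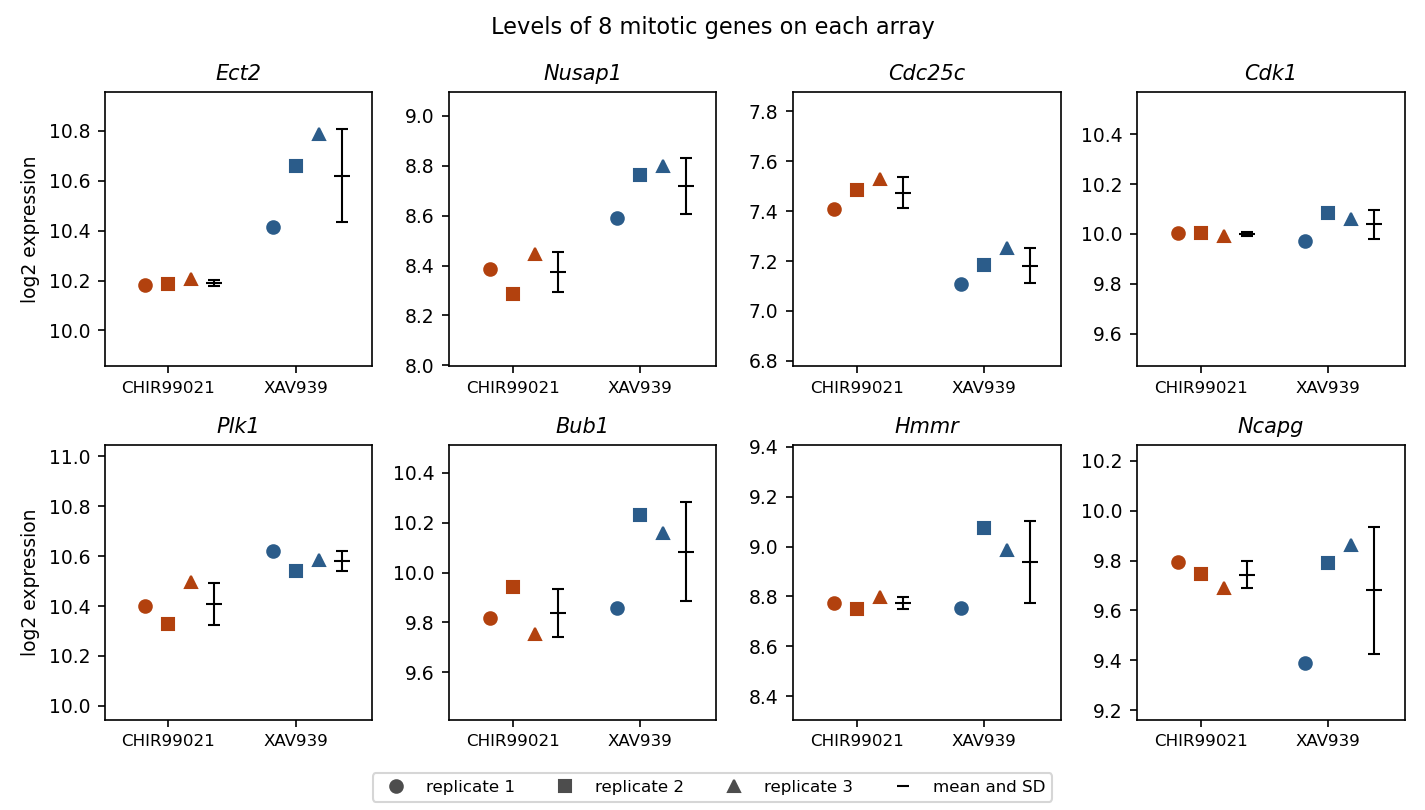
Log2 expression of 8 mitotic genes on each array (y axis, every panel spanning the same range), CHIR99021 on the left and XAV939 on the right of each panel; symbols are the 3 replicates and the black marks the mean and SD. Ect2 and Nusap1 are lower and Cdc25c higher on every CHIR99021 array, Cdk1 is level, and XAV939 replicate 1 sits below the other XAV939 arrays for Bub1, Hmmr and Ncapg.

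The kinase and cyclins at the centre of mitotic entry did not pass. Cdk1, the mitotic kinase itself, had log2 levels of 10.00, 10.00 and 9.99 under CHIR99021, against 9.97, 10.09 and 10.06 under XAV939. The groups overlapped, and the difference of -0.039 had a 95% interval of -0.16 to 0.078. Ccna2, the cyclin of S and G2 phase, averaged 10.51 ± 0.06 under CHIR99021 and 10.47 ± 0.04 under XAV939, with an interval of -0.076 to 0.17 for the difference (SD, n = 3 each). Ccnb2, a mitotic cyclin, averaged 10.34 ± 0.02 under CHIR99021 and 10.31 ± 0.04 under XAV939, with an interval of -0.080 to 0.15 (SD, n = 3 each). Cdc25b, a phosphatase that acts on the same kinase as Cdc25c, had 6.815, 6.716 and 7.112 under CHIR99021, against 6.991, 7.003 and 6.935 under XAV939. For Cdc25b the widest spread was among the CHIR99021 arrays, with replicate 3 high, and the difference was -0.096 ± 0.090 (SE).

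Among the mitotic kinases outside complexes, 0 of 3 passed in limma, with Plk1 alone at an unadjusted p under 0.05. Over all genes 20.6% had an unadjusted p under 0.05, the share to set beside this class and those that follow. Plk1, the polo kinase of mitotic entry and spindle assembly, had 10.40, 10.33 and 10.50 under CHIR99021, against 10.62, 10.54 and 10.58 under XAV939. The groups did not overlap, by a margin smaller than the spread within CHIR99021, and the difference was -0.17 ± 0.06 (SE, adjusted p = 0.109 in limma). Aurka, the kinase of spindle poles, differed by 0.050 and Nek2, a centrosome kinase, by 0.025, both with overlapping groups.

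The chromosomal passenger complex places Aurora B at centromeres and then at the spindle midzone. In limma 0 of its 4 genes passed, 1 having an unadjusted p under 0.05. Incenp, its scaffold, had 8.88, 8.91 and 8.94 under CHIR99021, against 9.07, 9.06 and 9.07 under XAV939. Its XAV939 arrays were nearly equal and all lay above the CHIR99021 arrays, with a difference of -0.16 ± 0.05 (SE, adjusted p = 0.0814 in limma). The kinase Aurkb differed by -0.027, survivin (Birc5) by 0.0043 and borealin (Cdca8) by -0.058, all with overlapping groups.

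The spindle checkpoint delays anaphase until kinetochores are attached. Of its 5 genes 0 passed in limma and 2 had an unadjusted p under 0.05. Bub1, a checkpoint kinase of kinetochores, had 9.82, 9.94 and 9.75 under CHIR99021, against 9.86, 10.23 and 10.16 under XAV939. XAV939 replicate 1 lay among the CHIR99021 arrays and the other XAV939 arrays above them, and the difference was -0.25 ± 0.09 (SE, adjusted p = 0.154 in limma). Bub3, the partner that docks Bub1 at kinetochores, had 10.26, 10.23 and 10.32 under CHIR99021, against 10.40, 10.39 and 10.44 under XAV939. The Bub3 groups did not overlap, and the difference was -0.14 ± 0.05 (SE, adjusted p = 0.139 in limma). Ttk, the kinase that starts checkpoint signalling, differed by -0.13, BubR1 (Bub1b) by -0.032 and Mad2l1, the inhibitor of Cdc20, by 0.062.

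Anaphase and mitotic exit were represented by 4 genes, 0 of which passed in limma and 1 of which had an unadjusted p under 0.05. Cdc20, the activator of the anaphase-promoting complex, had 9.94, 9.92 and 9.88 under CHIR99021, against 10.09, 10.10 and 10.00 under XAV939. Its groups did not overlap, with a difference of -0.15 ± 0.05 (SE, adjusted p = 0.131 in limma). Ube2c, a ubiquitin-conjugating enzyme of that complex, differed by -0.063, also without overlap. Separase (Espl1), which cleaves cohesin, and securin (Pttg1), which holds separase inactive, differed by -0.027 and -0.018, with overlapping groups.

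The 3 centromere genes gave 0 calls in limma and 0 at an unadjusted p under 0.05. Cenpa, the histone variant that marks centromeres, differed by 0.065 ± 0.053 (SE), and the kinetochore proteins Cenpe and Cenpf by -0.11 ± 0.07 and 0.084 ± 0.087 (SE). Of 5 kinesin motors 0 passed in limma and 1 had an unadjusted p under 0.05. It was Kif11, the motor that pushes spindle poles apart, with 9.58, 9.57 and 9.51 under CHIR99021, against 9.58, 9.76 and 9.82 under XAV939. XAV939 replicate 1 again lay level with the CHIR99021 arrays, and the difference was -0.16 ± 0.07 (SE, adjusted p = 0.195 in limma). Kif20a, which carries the passenger complex to the midzone, was at 9.90 ± 0.03 under CHIR99021 and 9.82 ± 0.07 under XAV939 (SD, n = 3 each), without overlap but not past the threshold (adjusted p = 0.491 in limma). Kif20b, Kif2c, a microtubule depolymerase, and Kif4, a chromosome-bound motor, differed by 0.075, -0.049 and 0.10.

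Beside Nusap1, the spindle assembly genes Tpx2 and Hmmr did not pass. Tpx2, the activator of Aurora A on the spindle, had 9.88, 9.87 and 9.92 under CHIR99021, against 9.95, 10.09 and 10.03 under XAV939. The groups did not overlap and the difference was -0.13 ± 0.06 (SE, adjusted p = 0.214 in limma). Hmmr, a spindle-bound protein, had 8.77, 8.75 and 8.80 under CHIR99021, against 8.75, 9.07 and 8.99 under XAV939. Its XAV939 replicate 1 lay among the CHIR99021 arrays, and the difference was -0.16 ± 0.08 (SE, adjusted p = 0.271 in limma).

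Beside Ect2, the cytokinesis genes did not pass. Kif23, the motor subunit of centralspindlin, the complex that recruits Ect2 to the midzone, differed by 0.012 ± 0.062 (SE). Anln, the scaffold of the contractile ring, differed by -0.023 ± 0.053 and Prc1, the bundler of midzone microtubules, by -0.16 ± 0.08 (SE). Among genes of chromosome structure, 0 of 3 passed in limma and 1 had an unadjusted p under 0.05. Ncapd2, a condensin I subunit, had 9.82, 9.81 and 9.89 under CHIR99021, against 10.01, 10.01 and 9.96 under XAV939. Its groups did not overlap and the difference was -0.15 ± 0.05 (SE, adjusted p = 0.108 in limma). Ncapg, another condensin I subunit, differed by 0.063 ± 0.105, and Top2a, which untangles sister chromatids, by -0.11 ± 0.07 (SE). A second Top2a probe set, much dimmer than the one used, gave a difference of -9.0e-05.

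**Figure D2:**
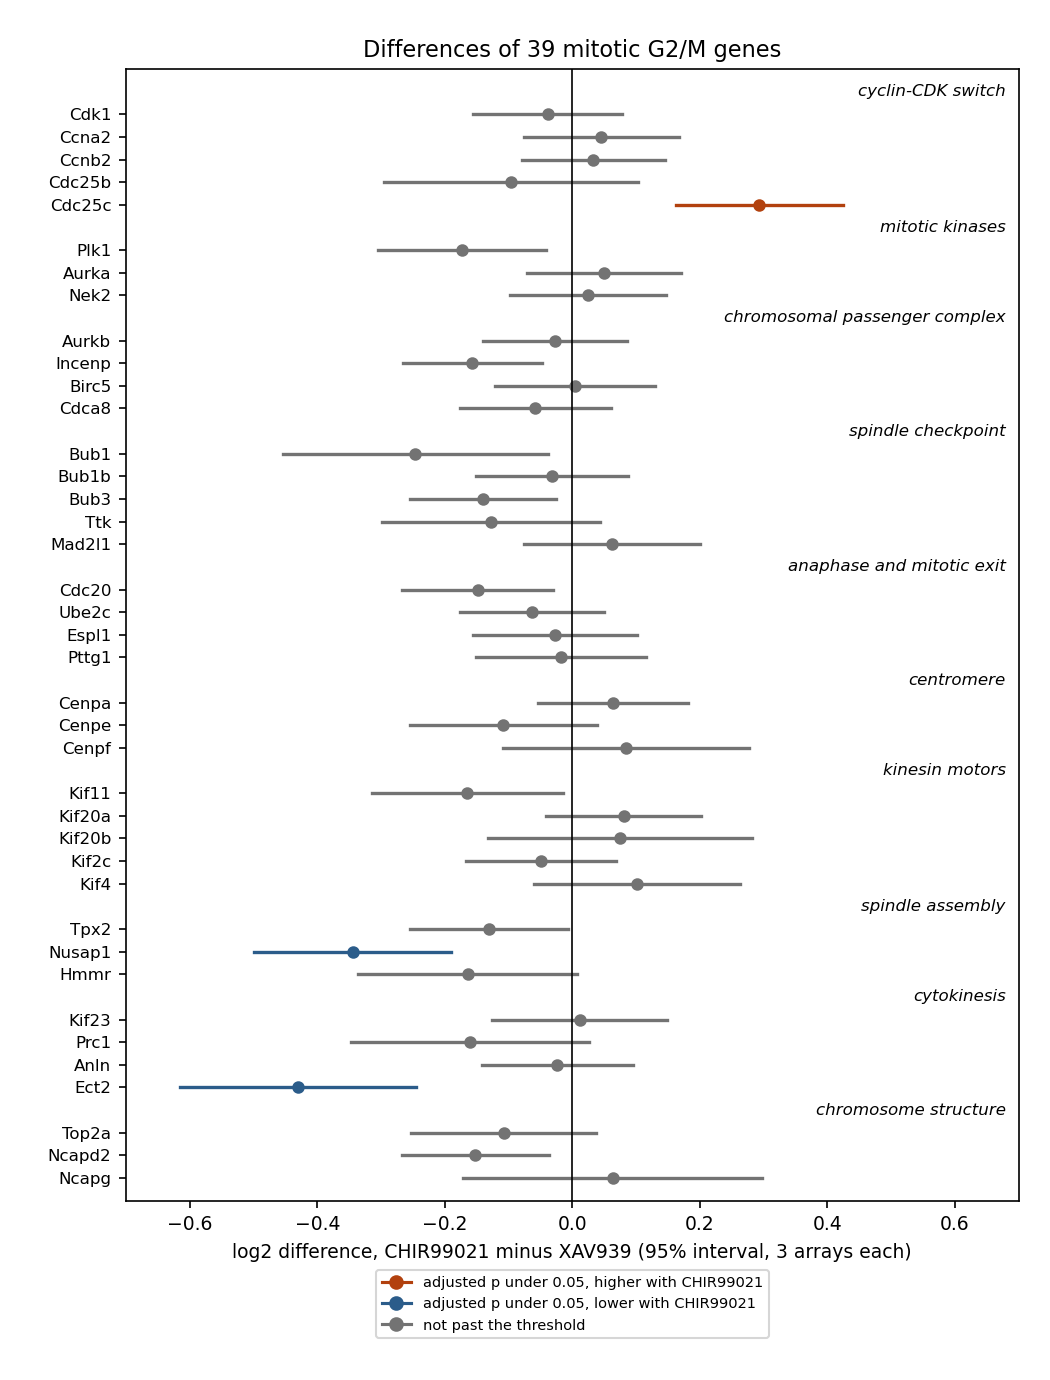
Log2 difference, CHIR99021 minus XAV939 (x axis), with its 95% interval from limma for each of the 39 genes, grouped by function. The intervals of the 36 genes not past the threshold all lie within 0.5 of 0. Those of Nusap1 and Cdc25c do so too, and that of Ect2 reaches -0.62.

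The unadjusted intervals give a range for the differences of the uncalled genes, as far as the spread between these arrays can set it. For all 36, the 95% interval of the difference lay within 0.5 of 0 on the log2 scale, or 1.41-fold, and for 18 of them within 0.25, or 1.19-fold. The widest bound was that of Bub1, at 1.37-fold, and the narrowest that of Birc5, at 1.09-fold. For 8 of the 36 the unadjusted interval left out 0, and all 8 differences were negative: Plk1, Incenp, Bub1, Bub3, Cdc20, Kif11, Tpx2 and Ncapd2. Counted with the 3 called genes, 11 of 39 genes (28.2%) had an unadjusted p under 0.05, against 20.6% of all genes. The treatments did not overlap for 11 of the 39 (28.2%), against 25.1% of all genes. Of these, 9 were lower under CHIR99021 (23.1%, against 11.0%) and 2 were higher (5.13%, against 14.1%).

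The XAV939 arrays differed from each other on these genes. XAV939 replicate 1 was the lowest of its group for 24 of the 39 mitotic genes (61.5%), against 36.4% of all genes. It was lower than the mean of the other XAV939 arrays by more than 0.2 for 12 of the 39 and higher by more than 0.2 for 0. Its median distance from that mean was -0.092 over the mitotic genes and 0.0078 over all genes. The shortfall was deepest for Ncapg, which had 9.39 on that array and 9.79 and 9.86 on the others of its group, and was next for Kif20b and Cenpf, at -0.37 and -0.34. Mitotic genes did not share it evenly: Ccna2, Plk1, Ube2c and Cenpa were there slightly above the mean of the other XAV939 arrays. Among the CHIR99021 arrays, the median distances from the other arrays of the group were -0.013, -0.0042 and 0.021 for replicates 1, 2 and 3.

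**Figure D3:**
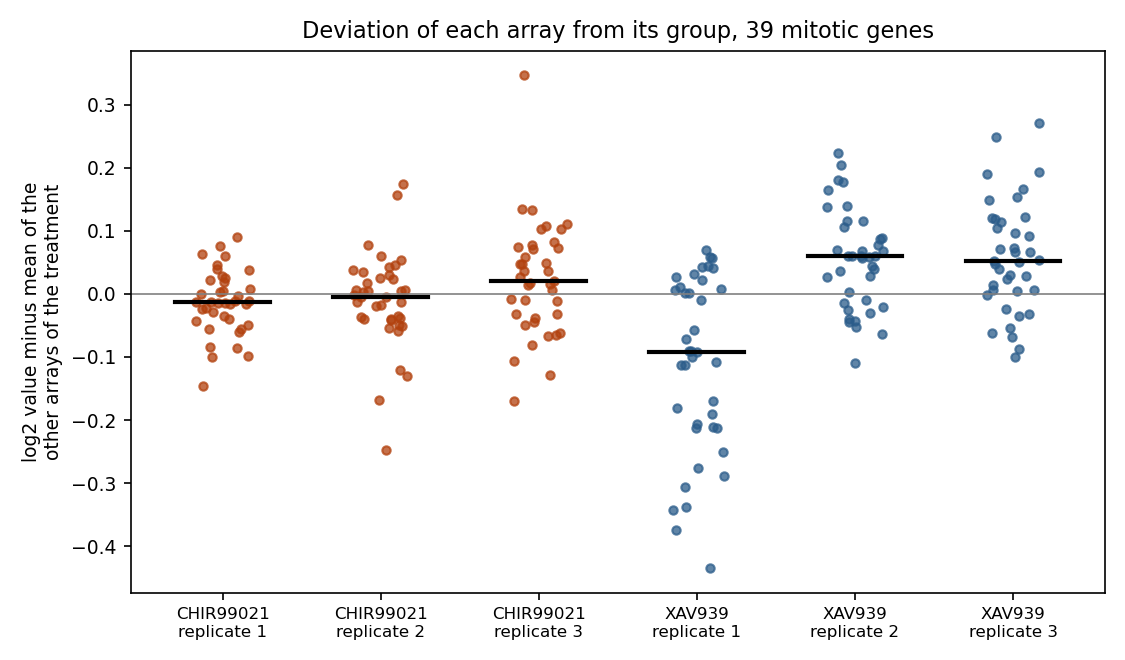
For each array (x axis), the log2 value of each of the 39 genes minus the mean of the other arrays of the same treatment (y axis); bars are medians. The points of XAV939 replicate 1 reach down to -0.43, with a median of -0.092, while the medians of the CHIR99021 arrays lie between -0.013 and 0.021.

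Without XAV939 replicate 1, 7 of the 39 genes passed in limma (17.9%, against 11.3% of all genes), 1 higher (5.67% of all genes were) and 6 lower (5.60% of all genes were). The share among genes above the 50th percentile of level, where all 39 lie, was not counted without this array. With all 6 arrays it was 17.7%, so 17.9% cannot be read as an excess. Bub1, Hmmr, Ttk and Kif11 joined Ect2 and Nusap1 among the genes that were lower. Their log2 differences were then -0.36 for Bub1 (adjusted p = 0.00840), -0.26 for Hmmr (0.0158), -0.22 for Ttk (0.0195) and -0.24 for Kif11 (0.0224), by limma with 2 XAV939 arrays. Ttk had 8.55, 8.55 and 8.54 under CHIR99021, against 8.48, 8.77 and 8.77 under XAV939. Its low XAV939 array lay below the CHIR99021 arrays and the others above them. The difference of Ect2 was -0.53 and that of Cdc25c 0.26 without this array. The differences of Ncapg, Kif20b, Cenpf and Kif23 changed sign, to -0.082, -0.050, -0.030 and -0.048, and did not pass. The number of genes with a negative difference was 29 of 39 without the array and 25 of 39 with it, and the median difference was -0.057 without it. This array was singled out for its low values on these same genes, and leaving out a low XAV939 value makes a difference more negative by construction, as it did for 25 of the 39, so the shift and the added lower calls follow in part from that choice and are no independent evidence. Leaving out CHIR99021 replicate 3 as well gave the same 6 lower genes and 1 higher, against 6.24% and 5.42% of all genes (11.7% in either direction).

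Other genes of cell division, taken from 6 lists, gave few calls as well. The shares of all genes to set beside these lists are 5.31% called higher, 4.34% called lower and 20.6% at an unadjusted p under 0.05 (limma). Among 24 genes of G2/M transcription and mitotic entry control, 1 rose and 1 fell, with a median difference of -0.068. Rbl1, encoding the pocket protein p107, rose by 0.28 ± 0.06, and Gas2l3, a cytoskeletal linker of the midbody, fell by 0.26 (SE 0.06). The anaphase-promoting complex and its regulators gave 0 calls in 17 genes by limma, 3 at an unadjusted p under 0.05, and a median of 0.025. Its smallest p was that of the subunit gene Anapc10, with a difference of 0.26 ± 0.08 (SE, adjusted p = 0.0809). Of 38 further kinetochore and centromere genes 1 rose and 1 fell: Zwint, which ties checkpoint proteins to the outer kinetochore, by 0.31 ± 0.06 (SE), and Cenpw, an inner kinetochore gene, at -0.42 ± 0.10 (SE). Their median was -0.010. Leaving out any CHIR99021 array ended the call of Rbl1 (adjusted p of up to 0.0940), leaving out any array but XAV939 replicate 1 that of Gas2l3 (up to 0.100), and leaving out CHIR99021 replicate 2 or 3 or XAV939 replicate 2 that of Cenpw (up to 0.108), while Zwint kept its call without each array (limma).

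Condensin and cohesin gave 0 calls in 17 genes by limma, 4 at an unadjusted p under 0.05, and a median of -0.0093. The smallest p was that of the cohesin gene Stag2, at 8.22, 8.22 and 8.23 under CHIR99021, against 8.27, 8.73 and 8.74 under XAV939 (adjusted p = 0.0746 in limma). Here too XAV939 replicate 1 lay next to the CHIR99021 arrays, and without it Stag2 differed by -0.51 (adjusted p = 2.16e-04 in limma). Leaving out this low value makes the difference more negative by construction, so the smaller p is no independent evidence. Of 25 further genes of the spindle, motors and cytokinesis, 1 rose and 0 fell, with a median of -0.033. Cep55, which recruits the abscission machinery to the midbody, had 9.05, 9.07 and 9.13 under CHIR99021, against 8.66, 8.65 and 8.71 under XAV939. Its groups lay far apart relative to their spread, and it was 1.33-fold higher (0.41 ± 0.05, SE, adjusted p = 4.74e-04 in limma). In cytokinesis, then, Cep55 was higher and Ect2 lower in the same arrays.

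DNA replication genes, which are transcribed ahead of mitotic genes in the cycle, had 0 higher and 3 lower of 36 (8.33%, against 4.34% of all genes called lower), with a median of -0.012. Ccne1, the cyclin of S phase entry, fell by 0.31, Hells, a chromatin remodeller, fell by 0.30 and Pold1, the catalytic subunit of polymerase delta, fell by 0.22 (adjusted p = 0.0122, 0.0300 and 0.0377 in limma). The call of Ccne1 ended without CHIR99021 replicate 1 or 2 (adjusted p of up to 0.0681), that of Hells without any array but XAV939 replicate 1 (up to 0.115) and that of Pold1 without any array but CHIR99021 replicate 3 (up to 0.153). These counts moved with XAV939 replicate 1, which was singled out on the mitotic genes, so the movement is no independent evidence. Without it, the genes called lower were 2 of 24 in G2/M transcription and entry control, 2 of 38 in kinetochores and centromeres, 2 of 17 in condensin and cohesin, 2 of 25 in the spindle list and 4 of 36 in DNA replication, against 5.60% of all genes, and 0 of 17 in the anaphase-promoting complex. Those called higher without it were 1 in G2/M control, 2 in kinetochores and centromeres, 1 in the spindle list and 0 in the other lists. Of all genes, 5.67% were called higher without it.

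**Figure D4:**
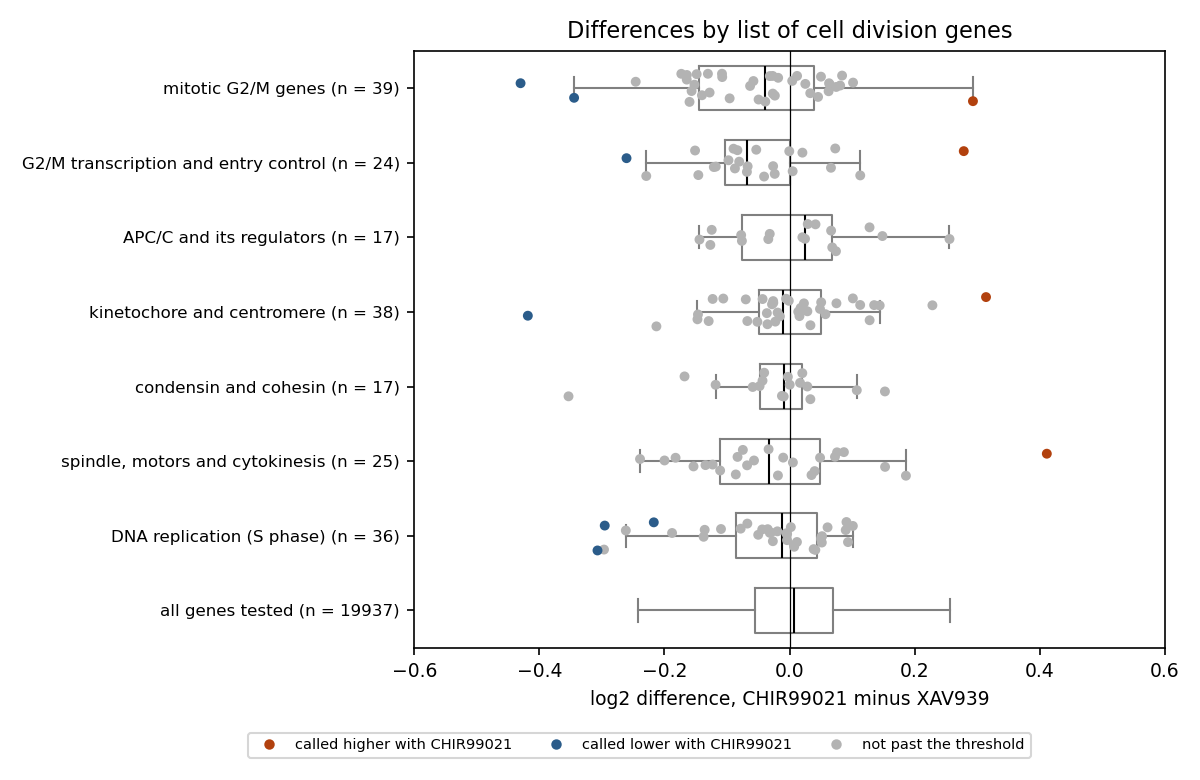
Log2 difference, CHIR99021 minus XAV939 (x axis), of each gene in 7 lists of cell division genes, and of all genes tested as a box alone; boxes show the quartiles and whiskers reach the last value within 1.5 box lengths. The cell division lists hold 0 to 3 called genes each, and their medians lie between -0.068 and 0.025.

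The arrays carried the levels of embryonic stem cells. Pou5f1 averaged 11.33 ± 0.10 under CHIR99021 and 11.51 ± 0.06 under XAV939 (SD, n = 3 each). Sox2 averaged 10.98 ± 0.03 under CHIR99021 and 10.98 ± 0.05 under XAV939, and Nanog 11.03 ± 0.02 under CHIR99021 and 10.54 ± 0.07 under XAV939. Of 10 stem cell markers 3 were called higher and 3 lower under CHIR99021, against 5.31% and 4.34% of all genes. Their mean log2 level was 10.70 to 10.76 under CHIR99021, against 10.75 to 10.79 under XAV939. The median level of these markers went the other way, at 11.00 to 11.02 under CHIR99021, against 10.72 to 10.81 under XAV939. Of 18 fibroblast markers, 7 were called higher under CHIR99021 and 0 lower, Col1a1 by 1.05 ± 0.05 (SE). The mean log2 level of the 18 was 6.42 to 6.46 under CHIR99021, against 6.16 to 6.25 under XAV939. Their median level overlapped, at 6.34 to 6.42 under CHIR99021 and 6.24 to 6.46 under XAV939. The part of feeder cells in the differences of the mitotic genes was not tested. Correlations over all genes were 0.998 to 0.999 among CHIR99021 arrays, 0.997 to 0.999 among XAV939 arrays and 0.994 to 0.995 between treatments, and the lowest within a treatment were those of XAV939 replicate 1.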

How the data were processed

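Total RNA, 300 ng per sample, was labelled for Affymetrix whole-transcript arrays, per the labels' protocols. The deposited table holds log2 expression values of 34760 probe sets, made by the authors with RMA, per the submitters' processing notes. Neither the RMA version nor a genome build was given in the sources used here. Without scanner files no detection call or scan batch was examined. The number of arrays limits the precision. Levels of different genes were not compared.

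The platform annotation gave 21640 probe sets 1 gene, 1321 several, which were left out, and 11799 none. The probe set with the highest mean stood for each of 19937 genes. Values were used as deposited in limma 3.58.1 (lmFit, eBayes; R 4.3.3), with Benjamini-Hochberg adjustment over all genes and a threshold of 0.05, after tests on simulated data. With 3 against 3 arrays an exact permutation test cannot go below 0.1, so none was used. The members, lists, functional classes and motif letters were chosen with earlier results of these data known. All members were described, and from each other cell division list the 3 genes with the smallest p in each direction among those called, or the 1 with the smallest p. The 8 genes plotted by array were chosen after their values were seen. Alternatives covered scaling, filters, probe set choice, variance model, array weights, the threshold and arrays left out. Besides that of Top2a, 1 promoter stretch is not reported here.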

Additional observations from a re-analysis of the deposited data

How the results depend on the processing

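Ect2, Nusap1 and Cdc25c kept their sign in all 15 alternatives run for single genes, and each lost its call when all probe sets were tested. In that test 0 mitotic genes were called higher and 0 lower, or 0% of the 39, against 5.24% of the 19937 genes (1307 probe sets called in all). Leaving out 1 array gave 1 to 6 mitotic genes called lower, 1 called higher each time, 1254 to 2247 genes called in all and medians of -0.057 to -0.030 over the mitotic genes; the lowest count of lower genes, 1, and the 1254 came without CHIR99021 replicate 2. Without XAV939 replicate 1 and CHIR99021 replicate 3 together, 6 were called lower and 1 higher (17.9% of the 39, against 11.7% of all genes, 2325 genes in all). Array weights gave XAV939 replicate 1 a weight of 0.384, the lowest. With these weights 1 mitotic gene was called higher and 9 lower, or 25.6% in either direction, against 14.3% of all genes. Among the 9 were Plk1, Incenp, Tpx2 and Ncapd2 beside Bub1, Kif11 and Hmmr. The weights called 7 lower of 36 in the DNA replication list and 3 of 25 in the spindle list. They called 2 lower of 24 in G2/M control, 2 of 38 in kinetochores and centromeres and 2 of 17 in condensin and cohesin. The anaphase-promoting complex had 0 lower of 17. Called higher were 2 in kinetochores and centromeres, 1 each in G2/M control, the anaphase-promoting complex and the spindle list, and 0 in the others. Over all genes the share called rose too, from 9.65% to 14.3%. The share of all genes called lower with the weights was not counted. So the lower counts, that of the mitotic genes included, cannot be read as an excess. At an adjusted p under 0.01, 1118 genes were called. The causes were not tested. Of the 36 uncalled mitotic genes, 8 changed sign and 8 were called in at least 1 alternative. Of 11 other called genes named, 6 lost the call in at least 1 alternative and 0 changed sign. Same-numbered arrays showed no shared deviation (correlations of -0.0957, 0.0602 and -0.143), while CHIR99021 replicate 3 and XAV939 replicate 1 had 0.182. Deviations from the mean of 3 arrays are tied to each other, so these values cannot exclude pairing. With the replicate block, 1 mitotic gene was called higher and 2 lower (7.69% of the 39, against 7.91% of all genes, 1578 genes in all).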
